A study of Danio rerio with 12 samples.

Results

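Of the 694920 ATAC-seq intervals in 12 equal-length lists, 166047 (23.9%) lay on zebrafish chromosomes 9, 18, 19, 22, 23 and 24. These 6 of 25 chromosomes were chosen because each took a larger share of the list in melanoma (MA) than in melanocytes (MC), so the difference in share is what selected them and is described here with no test. Each list held the 57910 strongest intervals of 1 library on chromosomes 1 to 25, ranked by the −log10 p of the peak caller, and an interval counted once for each start and end. By the mean log2 share ratio of MA over MC, chromosome 24 was the last one inside the choice, at 0.20, and chromosome 10 was the first one outside it, at 0.12.

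The 4 MC libraries came from mCherry-positive cells sorted from adult skin, and the 8 MA libraries from GFP-positive cells sorted from melanoma tumours. The labels give the 3 MC_Het libraries as BRAFV600E/+, p53+/lf, mitfa+/- and mitfa:mCherry. The MC_Homo library was BRAFV600E, p53lf/lf, mitfa+/- and mitfa:mCherry, and the MA libraries were BRAFV600E, p53lf/lf and crestin:EGFP. All 12 therefore carried the BRAF transgene, which mitfa drives in the pigment lineage, and a loss-of-function (lf) allele of p53. The mCherry transgene also carried a mitfa minigene, and MC_Homo is a single library with no replicate. All MC libraries and MA 4 and 5 belonged to run 2, and MA 6 to 11 to run 3. MC and MA differed in the sorting reporter with its transgene and in tissue, as well as in transformation. The MC_Het libraries also differed from MA in BRAF and p53 genotype. These differences cannot be told apart.

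In ATAC-seq, the Tn5 transposase cuts DNA that is free of nucleosomes, so cuts pile up at active promoters and enhancers. The number of cuts at a locus follows how open it is and also how many copies of it the cells hold, and a list of peaks alone cannot separate these. In zebrafish, mitfa is the master regulator of melanocytes, and crestin is a marker of the embryonic neural crest that is on again in melanoma. The share of intervals on a chromosome is a relative measure, so a higher share on some chromosomes must be met by a lower share on others.

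The lists rested on between 6.05 M and 24.6 M tags in each library, recovered from the background of the peak caller. MC_Het 5 was the deepest, and the other 11 libraries held at most 11.5 M. Intervals of 119 to 121 bp made up between 20.6% and 32.8% of the MC lists, between 21.0% and 21.6% of the lists of MA 4 and 5, and between 5.99% and 8.75% of the run 3 lists. The widest 95% Wilson interval was ± 0.201 percentage points for the share of 1 chromosome and ± 0.359 for the 6 together, and these cover counting error only.

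Together the 6 chromosomes held 20.3%, 20.8% and 20.4% of the intervals in MC_Het 4, 5 and 6 and 21.7% in MC_Homo. In MA the summed share ran from 23.3% in MA 11 to 26.5% in MA 10, with a median of 25.8%. The groups did not overlap, with means of 20.8% ± 0.629 (SD, n = 4) and 25.4% ± 1.11 (SD, n = 8), 4.62 percentage points apart. MA 4 and 5, sequenced in the same run as all MC libraries, stood at 25.9% and 26.4%.

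The 6 chromosomes differed in how steadily they were higher. Of the 48 pairs of a chromosome and an MA library, 41 (85.4%) lay above every MC library, beside 39.0% over all 25 chromosomes, where 37.5% lay below every MC library. Because the members were chosen on this contrast, nothing is read from that difference. All 6 chromosomes were above every MC library in MA 5, 6, 8 and 9, and 5 of them were in MA 4 and 10. MA 7 had 4 above, and MA 11 had 3 above and 2 below.

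Chromosome 19 held 4.05%, 4.22% and 4.06% of the intervals in MC_Het 4, 5 and 6 and 4.46% in MC_Homo. In MA it held 4.30% in the lowest library, 5.31% at the median and 6.37% in the highest, MA 8. All MA libraries but MA 11 lay above MC, and the mean log2 ratio was 0.34 (SD 0.20). It was the largest mean ratio among the 25 chromosomes, and among the 10000 strongest intervals of each list it was 0.57 (SD 0.32).

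Chromosome 23 spread most widely of the 6. It held 3.07%, 3.21% and 3.28% in MC_Het 4, 5 and 6 and 3.42% in MC_Homo, against 2.81%, 4.05% and 5.19% as the lowest, median and highest MA value. The mean log2 ratio was 0.31 (SD 0.29). MA 10 stood highest at 0.68, MA 4 lay inside the MC range at 0.02, and MA 11 fell below every MC library at −0.21.

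Chromosome 18 held 3.00%, 3.25% and 3.02% in MC_Het 4, 5 and 6 and 3.31% in MC_Homo, and 3.26%, 3.84% and 4.54% as the lowest, median and highest MA share. Its mean log2 ratio was 0.30 (SD 0.18), with MA 11 the highest at 0.53. MA 7 was the one MA library inside the MC range.

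Chromosome 9 held 4.48%, 4.27% and 4.40% in MC_Het 4, 5 and 6 and 4.42% in MC_Homo, and 4.29%, 4.93% and 6.51% as the lowest, median and highest MA share. The mean log2 ratio was 0.25 (SD 0.20). MA 5 stood highest at 0.57, and MA 10 lay within MC at −0.03.

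Chromosome 22 was the one member on which every MA library exceeded every MC library. Its shares were 2.65%, 2.79% and 2.76% in MC_Het 4, 5 and 6 and 2.76% in MC_Homo, and in MA 2.97%, 3.14% and 3.79% as the lowest, median and highest. The mean log2 ratio of 0.23 (SD 0.13) had the smallest spread of the 6, and MA 4 was the highest.

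Chromosome 24 held 3.03%, 3.10% and 2.91% in MC_Het 4, 5 and 6 and 3.31% in MC_Homo, and 2.57%, 3.54% and 4.43% as the lowest, median and highest MA share. Its mean log2 ratio was 0.20 (SD 0.26). MA 8 stood highest at 0.52, MA 7 was at 0.01 inside the MC range, and MA 11 was below every MC library at −0.26. For comparison, each MC library set against the mean of the other 3 lay between −0.11 and 0.14 on all 6 chromosomes.

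**Figure D1:**
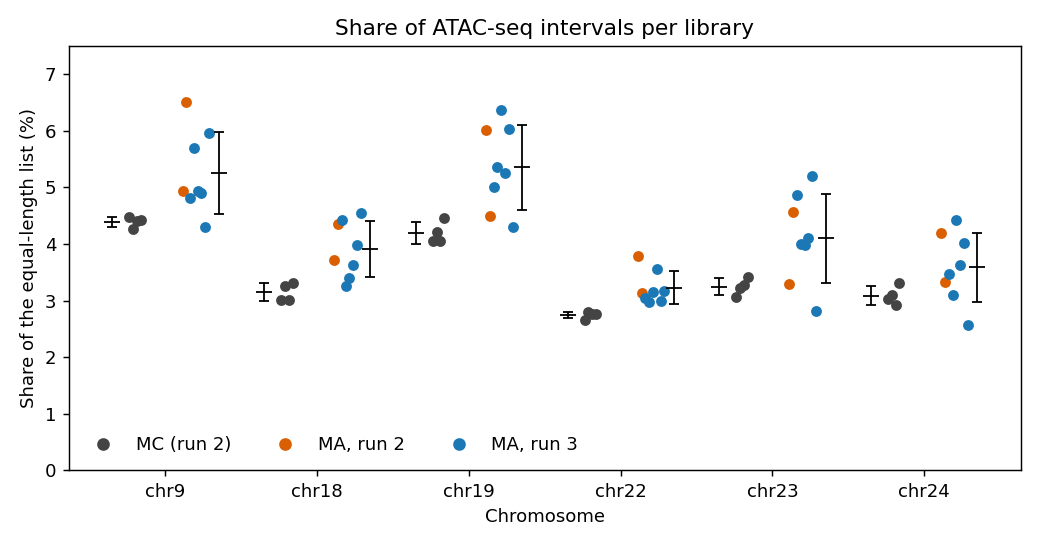
Share of each equal-length list (%, y axis) on the 6 chromosomes (x axis) in 4 MC libraries (grey) and 8 MA libraries (orange, run 2; blue, run 3), with the mean and SD of each group as bars. Chromosome 22 is the one on which the groups do not overlap, and MA 11 lies below all MC libraries on chromosomes 23 and 24.

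The excess was then described by the strength of intervals. These values come from the libraries that chose the 6 chromosomes, so they describe the excess and test nothing. Among ranks 1 to 10000 the 6 chromosomes held on average 21.4% in MC and 27.4% in MA, among ranks 10001 to 30000 they held 21.3% and 24.5%, and from 30001 to 57910 they held 20.3% and 25.4%. Every chromosome had a positive mean log2 ratio in each of the 3 tiers, between 0.14 and 0.57. Without the intervals of 119 to 121 bp, the mean log2 ratios of chromosomes 9, 18, 19, 22, 23 and 24 were 0.35, 0.28, 0.27, 0.31, 0.30 and 0.25. In MA 4 and 5 alone, which share run 2 with MC, they were 0.37, 0.35, 0.31, 0.33, 0.26 and 0.28.

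The shares were compared between the MA libraries of run 2 and run 3. The summed share was 26.2% ± 0.333 (SD, n = 2) in run 2 and 25.2% ± 1.19 (SD, n = 6) in run 3, a difference of 0.965 percentage points (two-sided exact permutation test, p = 0.321, adjusted p = 0.75 over 7 tests). The lowest p among the 6 chromosomes was 0.179, for chromosome 22 (exact permutation, adjusted p = 0.75). With 2 libraries against 6 the smallest p this test allows is 0.0357, and over 7 tests a single difference at that p would have an adjusted p of 0.25, so these tests could not call 1 chromosome alone.

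Scanning in windows of 5 Mb asked whether whole chromosomes, arms or segments carried the excess. A window was called raised when its share was above that of every MC library and its log2 ratio to the MC mean was at least 0.2. Of 480 windows in the 8 MA libraries, 286 (59.6%) were raised, beside 24.2% over all 25 chromosomes, and 18 were lowered by the mirrored rule, beside 30.0%. On the other 19 chromosomes 14.6% of MA windows were raised, and in the 4 MC libraries 8 of 240 windows of the 6 chromosomes (3.33%) were. Since the windows carry the contrast that chose the chromosomes, these counts describe the form of the excess and test nothing.

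Whole-chromosome, partial and patchy excess all occurred. Of the 48 pairs, 18 were whole (at least 80% of the windows raised), 14 were partial (fewer, but at least 3 neighbouring windows raised), and 16 were scattered or none. All 24 pairs in MC were scattered or none. In 21 of the MA pairs every window had a positive log2 ratio. In run 2, 6 of 12 pairs were whole and 1 was partial. In run 3, 12 of 36 were whole and 13 were partial. These forms were not particular to the 6 chromosomes. Chromosome 10, the first one outside the choice, was whole in MA 11, with 10 of 10 windows raised, and partial in MA 8, 9 and 10. Its log2 share ratio in MA 11, 0.680, was the highest of any chromosome in any MA library. On chromosomes 6 and 16 every MA pair was scattered or none. These words count raised windows only, and on chromosome 16 all 12 windows were lowered in MA 7, 8, 9 and 10. The patterns of the remaining chromosomes were not counted.

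Each tumour had its own set of wholly raised chromosomes among the 6. In MA 4 they were chromosomes 19, 22 and 24, with every window raised, while on chromosome 23 none was. In MA 5 they were 9, 18 and 23, with all windows of chromosomes 9 and 23 raised. MA 6 had 18 and 23, MA 7 had 9, MA 8 had 19 and 24, and MA 9 had 19. MA 10 had the most, with 18, 19, 23 and 24, and had no raised window on chromosome 9. MA 11 had 9 and 18, with 11 of 12 and 10 of 11 windows raised.

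The same tumour could be raised on one chromosome and lowered on another. In MA 11, 6 of 9 windows of chromosome 24 and 4 of 10 of chromosome 23 were lowered, and no window of either was raised. Its window log2 ratios on chromosome 24 ran from −0.47 to −0.18. Over the 6 chromosomes together, 43.3% of the windows were raised in MA 11 and 46.7% in MA 7, the lowest of the tumours. MA 8 and 9 had 60% raised, MA 4 and 5 had 63.3% and 66.7%, and MA 6 and 10 had 68.3% each.

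**Figure D2:**
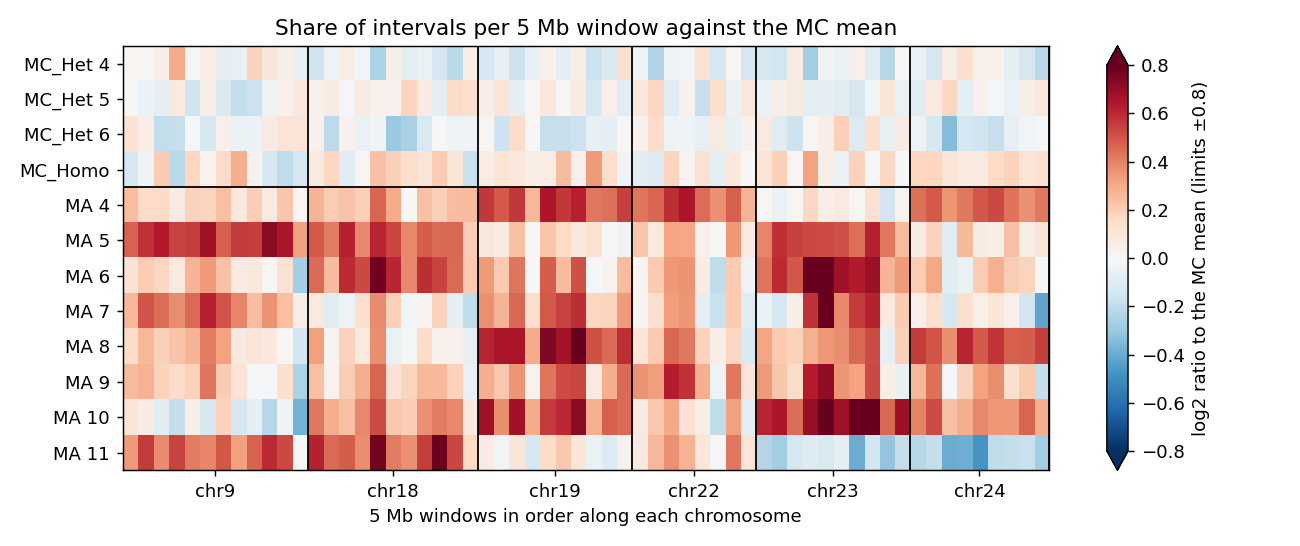
Log2 ratio of the share in each 5 Mb window to the MC mean (colour), for 12 libraries (rows) and the windows of the 6 chromosomes in order (columns); each MC library is set against the mean of the other 3. Unbroken red blocks, such as chromosome 19 in MA 4, 8 and 10 or chromosome 9 in MA 5, are the whole-chromosome pattern, and the blue blocks on chromosomes 23 and 24 belong to MA 11.

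The windows of the 18 wholly raised pairs varied to different degrees. The SD among windows of a pair ran from 0.06 to 0.22, with a median of 0.14, and was above the largest MC value of 0.17 in 3 pairs. These were chromosome 23 in MA 6, with windows from 0.27 to 1.01 and an SD of 0.22, chromosome 18 in MA 11, from 0.16 to 0.78 with an SD of 0.18, and chromosome 19 in MA 9, from 0.03 to 0.54 with an SD of 0.18. On chromosome 24 in MA 4 the 9 windows lay between 0.36 and 0.53, with an SD of 0.06, and in MA 8 between 0.37 and 0.61, with an SD of 0.07. On chromosome 9 in MA 5 the 12 windows lay between 0.33 and 0.72 (SD 0.11). Over the 24 MC pairs the median SD among windows was 0.11, beside 0.11 from the counting error of the library's own windows. Over the 48 MA pairs it was 0.15, beside 0.10. These counting values leave out the error of the MC mean and are therefore too low for the ratio.

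Arms could not be told directly, because no centromere position was used, and the parts before and after the midpoint of the covered length stood in for them. The later part minus the earlier one differed by at most 0.10 in MC. In MA it went past that in 14 of the 48 pairs of the 6 chromosomes, 7 of them on chromosome 22. There the earlier part exceeded the later one in all 8 MA libraries, by 0.07 in MA 11 up to 0.26 in MA 9. In MA 9 the earlier part stood at 0.47 and the later one at 0.21. Such differences were not particular to the 6 chromosomes. On chromosome 10, the first one outside the choice, the difference was over 0.10 in size in all 8 MA libraries. The later part was higher there in all but MA 9, at −0.25. On chromosome 6 the difference reached 0.46 in MA 6. How often the remaining chromosomes went past 0.10 was not counted.

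Among the 6 chromosomes, the largest break within a chromosome lay on chromosome 23. In MA 7 the mean log2 ratio stepped up by 0.51 at 15 Mb, where the largest step in any MC pair was 0.21, and 16 of 48 MA pairs had a step over that. A larger step was found outside the 6, on chromosome 16, at −0.89 in MA 10. Its later side ran only from 50 Mb to the end of the chromosome. That side included a short last window from 55 to 55.3 Mb, and the lowest window of the chromosome was at −3.07. The largest MC step on chromosome 16 was 0.34, in MC_Het 5, also at 50 Mb, and the window from 55 to 55.3 Mb was the only raised one there. Since a short window weighs as much as a full one, neither step was read as a break of a longer stretch. The same limit applies to part of the 16 steps on the 6 chromosomes. On chromosome 9 at 50 Mb in MA 6, 7 and 8, the later side was only the last 2 windows, the final one short. It was also so on chromosome 23 at 40 Mb in MA 6, 8 and 9. So it was on chromosome 18 at 45 Mb in MA 7 and on chromosome 24 at 35 Mb in MA 7 and 9. How often other chromosomes went past 0.21 was not counted. On chromosome 23 the break in MA 7 opened a longer stretch. Windows from 15 to 40 Mb formed an unbroken raised run in MA 7, 8 and 9, and the same stretch stood above the rest of the chromosome in MA 6 and 10, where the whole chromosome was raised.

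That segment, taken after its windows had been seen, was measured in every library. Its log2 share ratio minus that of the rest of chromosome 23 was 0.06, −0.10 and 0.10 in MC_Het 4, 5 and 6 and −0.05 in MC_Homo. In MA it was 0.58 in MA 7, 0.31 in MA 6, 0.30 in MA 9, 0.24 in MA 8 and 0.22 in MA 10. MA 4, 11 and 5 were at 0.13, 0.09 and 0.08. In MA 7 the segment held 2.26% of all intervals, at a ratio of 0.58, and the rest of the chromosome lay within the MC range, at −0.0014. In MA 5 segment and rest were both high, at 0.53 and 0.45, and in MA 11 both were low, at −0.16 and −0.25.

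**Figure D3:**
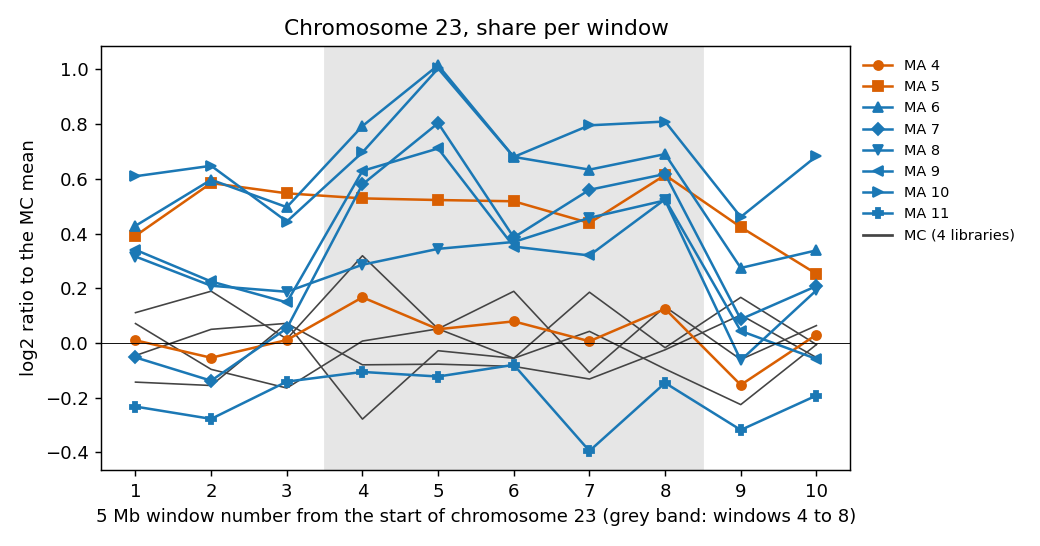
Log2 share ratio to the MC mean (y axis) for the 10 windows of chromosome 23 in order (x axis), in 8 MA libraries (orange, run 2; blue, run 3) and 4 MC libraries (grey lines); the grey band marks windows 4 to 8. In MA 7 the mean of all windows from the start of the band onward is 0.51 above the mean of those before it. MA 5 stays high throughout, and MA 11 stays below 0.

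Across the 60 windows of the 6 chromosomes, 9 were raised in 7 or 8 MA libraries and none was without a raised library. Windows of other chromosomes were not counted in this way. Since the 6 chromosomes were chosen for a higher share in MA, nothing is read from these counts. The window of chromosome 18 from 20 to 25 Mb was raised in 8 of 8, at a mean log2 ratio of 0.54 (SD 0.16, lowest 0.37), while MC libraries spanned −0.25 to 0.23 there. The window of chromosome 22 from 10 to 15 Mb was also raised in 8 of 8, at 0.42 (SD 0.13, lowest 0.30). The highest window of chromosome 23, from 20 to 25 Mb, was at 0.54 (SD 0.42) and raised in 6, and that of chromosome 19, from 30 to 35 Mb, was at 0.50 (SD 0.27) and raised in 6. For chromosomes 9 and 24 the highest windows, from 25 to 30 Mb and from 5 to 10 Mb, stood at 0.36 (SD 0.25) and 0.30 (SD 0.25).

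The lowest window was the last one on 2 of the 6 chromosomes, 9 and 18. On chromosome 9 the last window, from 55 to 56.5 Mb, had a mean log2 ratio of −0.08 and was lowered in 3 libraries, among them MA 6 and 9, whose chromosome 9 as a whole was above MC. On chromosome 18 the last window, from 50 to 51 Mb, was lowest at 0.07. The window of chromosome 23 from 40 to 45 Mb averaged 0.09, and that of chromosome 22 from 25 to 30 Mb averaged −0.03. Chromosome 19 was lowest from 15 to 20 Mb, at 0.11, and chromosome 24 from 10 to 15 Mb, at 0.03.

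Sites open in every library were used to ask whether height changed along with number. Regions are unions of overlapping intervals of the 12 lists, and 8298 of them were present in all 12, of which 1756 lay on the 6 chromosomes. At each, the summit pileup (overlapping tags) was taken relative to the MC mean and to the median of all shared regions of the same library. It measures the height of sites, not their number.

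On 4 of the 6 chromosomes the shared sites were taller in MA. The mean log2 pileup ratio was 0.90 (SD 0.45) on chromosome 19, over 365 regions, 0.55 (SD 0.18) on chromosome 22, 0.40 (SD 0.27) on chromosome 23 and 0.34 (SD 0.21) on chromosome 24. On chromosome 19 the pileup ratio of MA libraries ran from 0.11 in MA 11 to 1.47 in MA 4, all above MC, whose highest value was 0.07. On chromosomes 9 and 18 the pileup ratio was −0.13 (SD 0.16) and −0.03 (SD 0.21), and that of chromosome 18 was 0.02, 0.00365 and 0.01 without MC_Het 4, MC_Homo and MA 7 respectively.

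The sign on chromosomes 9 and 18 depended on which shared sites were counted. Regions that held an interval of 119 to 121 bp in any library made up 27.1% of the shared regions, and their median log2 pileup ratio averaged −1.03 over MA, while that of the others averaged 0.55. Without them 1265 regions remained on the 6 chromosomes. The mean log2 pileup ratio was then 0.24 (SD 0.24), 0.19 (SD 0.24), 0.72 (SD 0.38), 0.49 (SD 0.26), 0.48 (SD 0.33) and 0.42 (SD 0.28) on chromosomes 9, 18, 19, 22, 23 and 24. The local background around all 1756 shared sites, solved from the same values, had mean log2 ratios of 0.21, 0.23, 0.67, 0.46, 0.40 and 0.29 in that order. Ranked within the 10000 strongest of every list, where 207 shared regions lay on the 6 chromosomes (25 to 44 each), the pileup ratio was between −0.09 and 0.06.

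Within an MA library, chromosomes with a higher share ratio tended to have taller shared sites. Over the 25 chromosomes, Pearson's r between log2 share ratio and log2 pileup ratio was between 0.73 and 0.95 in the 8 MA libraries without the regions holding an interval of 119 to 121 bp, and between 0.53 and 0.83 with them. Both come from the same library and the same peak calls, so these are descriptions over chromosomes. On chromosome 23, without those regions, MA 6 had a share ratio of 0.59 and a pileup ratio of 1.004, and MA 10 had 0.68 and 0.82. MA 4, with 0.02, and MA 11, with −0.21, both had a pileup ratio of 0.08.

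**Figure D4:**
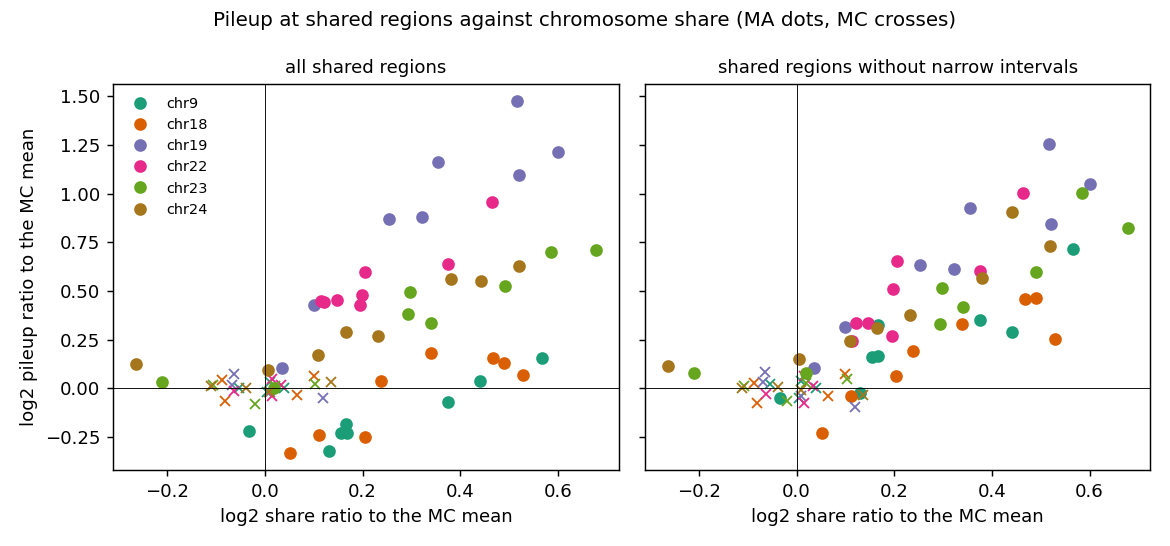
Log2 ratio of pileup at shared regions (y axis) against log2 ratio of share (x axis), both to the MC mean, with a dot for each MA library and a cross for each MC library on the 6 chromosomes (colours); all shared regions on the left, those without intervals of 119 to 121 bp on the right. Chromosome 9 lies under 0 in 6 of 8 MA libraries on the left and above 0 in 6 of 8 on the right, chromosome 18 lies on both sides of 0 on the left, and the mean of chromosome 19 is the highest of the 6 in both.

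Pileup at shared sites was compared in the same segment of chromosome 23, over 98 regions inside it and 127 outside. For the segment and for single windows, not all 1756 shared regions of the 6 chromosomes were used. Only the 1265 that remained after the removal by interval width described above were counted. Pileup inside minus outside was 1.16 on the log2 scale in MA 7, 0.68 in MA 9, 0.65 in MA 6, 0.61 in MA 8 and 0.57 in MA 10. It was 0.25, 0.17 and 0.11 in MA 5, 4 and 11, and between −0.22 and 0.11 in MC. The regions outside included 12 from 10 to 15 Mb and 35 from 40 to 45 Mb, and the median log2 pileup ratio of both windows was below 0 in all 8 MA libraries, from −2.21 in MA 7 to −0.70 in MA 11 in the first and from −1.37 in MA 7 to −0.31 in MA 5 in the other. Without these 47 of the 127 regions, a comparison chosen after seeing the data, inside minus outside was 0.79 in MA 7, 0.41 in MA 6, 0.30 in MA 8, 0.29 in MA 9 and 0.21 in MA 10. It was then 0.07, −0.05 and −0.08 in MA 5, 11 and 4, and between −0.13 and 0.02 in MC. The segment's own ratio was 1.28 in MA 6, 1.004 in MA 10, 0.96 in MA 7, 0.70 in MA 5, 0.61 in MA 9 and 0.52 in MA 8, and 0.12 and 0.11 in MA 11 and 4. In all, 5 of the 60 windows had a median pileup ratio under −0.5 in every MA library, so the pileup of a single window was not read as that of its chromosome. The windows whose share was raised in 8 of 8 went opposite ways in pileup. On chromosome 18 from 20 to 25 Mb the ratio was below 0 in every MA library, from −1.61 in MA 7 to −0.25 in MA 11. On chromosome 22 from 10 to 15 Mb it was above 0 in every MA library, from 0.36 in MA 5 to 1.22 in MA 4.

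Fold enrichment is the pileup over the local background of the same library. Its median over all listed intervals, shared and new together, did not follow the share. The median fold on the 6 chromosomes was 7.33, 7.80 and 7.18 in MC_Het 4, 5 and 6 and 5.98 in MC_Homo. In MA it was 6.12 in the lowest library, 8.67 at the median and 10.1 in the highest. Relative to the other 19 chromosomes of the same library, the log2 median fold was 0.04 ± 0.06 (SD, n = 4) in MC and −0.03 ± 0.06 (SD, n = 8) in MA. The groups overlapped, with MC between −0.01 and 0.11 and MA between −0.09 and 0.07.

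At shared sites, fold ratios were smaller than pileup ratios. They were 0.31 (SD 0.12) on chromosome 19 and 0.25 (SD 0.07) on chromosome 22, with all 8 MA libraries above MC, and 0.08 and 0.10 on chromosomes 23 and 24. On chromosomes 9 and 18 the fold ratio was −0.18 and −0.20, below MC in all 8, and without the regions holding an interval of 119 to 121 bp it was 0.09 and −0.04.

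The share of intervals that were new was set beside that of the other chromosomes. It comes from the same MA and MC lists that chose the 6 chromosomes, so it describes their excess and nothing is read from its direction. An interval was new when it overlapped no interval of the MC lists by 1 bp or more, with an MC library set against the other 3. On the 6 chromosomes 27.1%, 23.7% and 23.9% were new in MC_Het 4, 5 and 6 and 38.3% in MC_Homo, beside 29.1%, 23.7%, 25.6% and 36.6% on the other 19. In MA, between 39.5% and 52.1% were new on the 6 chromosomes, with a median of 49.8%, and between 27.9% and 44.2% on the other 19, with a median of 42.4%. The difference within a library was 4.31 percentage points in MA 11 and between 6.10 and 11.6 in the others. MC libraries were compared with 1 list fewer than MA libraries, which makes an interval more likely to be new in MC.

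**Figure D5:**
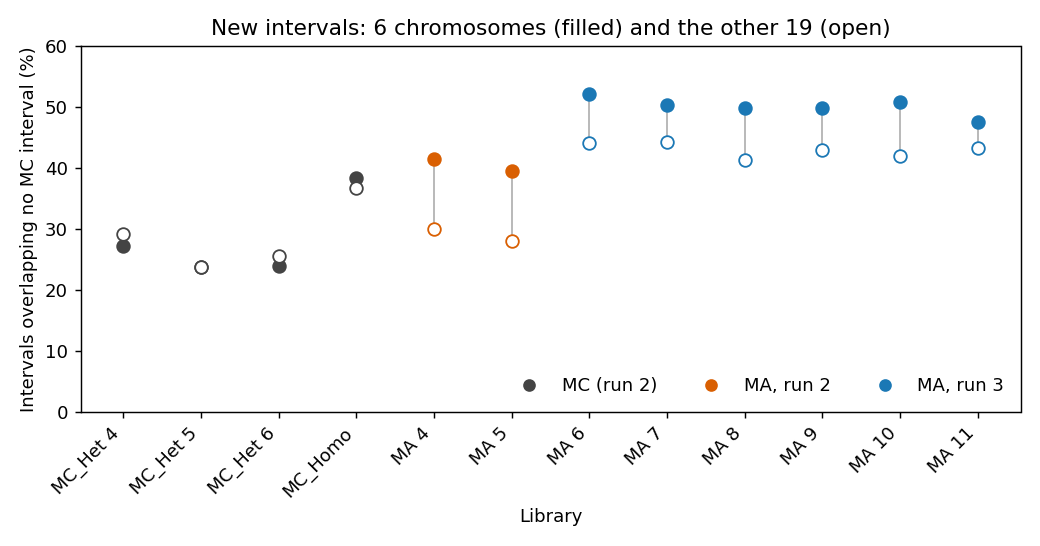
Percent of intervals that overlap no MC interval (y axis) in each library (x axis), on the 6 chromosomes (filled) and on the other 19 (open); grey, MC; orange, MA run 2; blue, MA run 3. In all 8 MA libraries the filled point lies above the open one, and the gap is widest, 11.5 and 11.6 percentage points, in MA 4 and 5.

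The excess was then divided between shared and new intervals, as a description under the same limit. The 6 chromosomes took 20.9% ± 0.222 (SD, n = 4) of the shared intervals in MC and 22.8% ± 0.487 (SD, n = 8) in MA. Of the new intervals they took 20.5% ± 1.54 (SD, n = 4) in MC and 29.4% ± 2.86 (SD, n = 8) in MA. MC and MA overlapped in neither. As mean log2 ratios to the MC share of the chromosome, these were 0.13 (SD 0.03) for shared and 0.49 (SD 0.14) for new intervals in MA.

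On single chromosomes the percent of intervals that were new averaged between 26.3% (chromosome 22) and 30.7% (chromosome 9) in MC and between 44.2% (chromosome 22) and 49.1% (chromosome 18) in MA. The widest 95% Wilson interval for 1 chromosome of 1 library was ± 2.50 percentage points.

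By chromosome, the ratio among shared intervals was largest on chromosome 19, at 0.22 (SD 0.10), followed by 0.18 on chromosome 23 and 0.16 on chromosome 22, and was 0.10, 0.05 and 0.03 on chromosomes 18, 9 and 24. Among new intervals it was 0.55 (SD 0.28) on chromosome 18, 0.49 on chromosomes 9 and 19, 0.46 on chromosome 23, 0.40 on chromosome 24 and 0.32 on chromosome 22. The median widths of new and shared intervals in MA averaged 197 and 196 bp, but libraries differed. New ones were wider in MA 4 (222 against 180 bp) and MA 5 (197 against 161 bp). They were narrower in MA 9, 10 and 11 (169, 151 and 153 against 192, 178 and 174 bp), and nearly alike in MA 6, 7 and 8. The new intervals were weaker, with a mean median fold of 6.92 ± 1.24 against 10.4 ± 1.62 (SD, n = 8).

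Many of the new intervals were listed in MC below the length limit. When compared with the complete MC lists, 21.9% ± 2.23 of MA intervals on the 6 chromosomes and 18.8% ± 3.36 on the other 19 (SD, n = 8) overlapped no MC interval. The difference between these shares, 3.16 percentage points, was less than the 8.22 found with the equal-length lists. The complete lists held 80522, 266537 and 93511 intervals in MC_Het 4, 5 and 6. MC_Homo held 57910, so it added nothing below the limit. How much of the fall came from the long list of MC_Het 5 was not tested.

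Counted by region, 1242 of 13369 regions tested on the 6 chromosomes (9.29%) were detected more often in MA (Fisher's exact test with Benjamini-Hochberg adjustment over all regions, adjusted p under 0.05), beside 6.60% of all regions tested. Regions detected more often in MC numbered 112 (0.838%), beside 1.02%. By chromosome the share detected more often in MA was 10.8% on chromosome 18, 10.1% on chromosome 9, 9.48% on chromosome 22, 9.34% on chromosome 19, 7.98% on chromosome 24 and 7.76% on chromosome 23. Detection in equal-length lists moves with the share of the chromosome, so nothing is read from these counts about the chromosomes. The 1242 regions called as more often detected in MA were those found in all 8 MA lists and no MC list.

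The strongest region of that kind on each chromosome, by mean rank, is the top of 151 to 286 regions per chromosome and lies far above the mean median fold of new MA intervals, 6.92. On chromosome 9 it was chr9:50090740-50091290, with folds from 24.6 in MA 10 to 42.5 in MA 6 and a median of 33.8. It was absent from all 4 equal-length MC lists, and it was present in the complete lists of MC_Het 5 and 6. On chromosome 23, chr23:37458454-37458813 had MA folds from 20 in MA 11 to 48.5 in MA 7, with a median of 36.7, and was in the complete list of MC_Het 5 only. It lies inside the segment that stood out in MA 7.

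The others were alike in size. On chromosome 18, chr18:10749204-10749701 had MA folds from 18.7 to 44.4, and on chromosome 19, chr19:22252491-22253028 had folds from 17.1 to 32.5. On chromosome 22, chr22:13137705-13138416 had folds from 14.8 to 25.5, and on chromosome 24, chr24:5975050-5975504 had folds from 22.8 to 41.0. Each of these 6 regions was in the complete list of MC_Het 5, the deepest library, so none was without any MC signal. Those on chromosomes 19 and 23 were in no other MC list, so their MC signal rests on that 1 library.

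Regions in all 12 lists are shown by the best-ranked one of each chromosome. They were picked for the best mean rank over all 12 libraries, which favours sites that are high in every library, so their likeness between groups is not read as a result. The best-ranked one on chromosome 19, chr19:10052366-10052770, had folds of 45.9, 42.5 and 44.0 in MC_Het 4, 5 and 6, 46.4 in MC_Homo and 40.7 to 46.2 in MA, so the groups overlapped. On chromosome 22, chr22:13280841-13281649 had folds of 23.7, 23.3, 23.9 and 24.6 in the 4 MC libraries and 24.03 to 27.8 in MA. It lies in the window that was raised in all 8 MA libraries, and its groups overlapped in part. On chromosome 23, chr23:20846189-20846417 lies in the segment from 15 to 40 Mb, and its folds of 67.2 to 70.2 in MC and 64.1 to 71.5 in MA overlapped. The best-ranked shared regions of chromosomes 9 (chr9:8338523-8338743), 18 (chr18:41168897-41169021) and 24 (chr24:26716669-26716873) had MA folds of 73.1 to 79.5, 65.4 to 72.9 and 57.6 to 72.2, with medians of 76.4, 70.3 and 70.2, and MC folds of 76.2 to 77.4, 71.2 to 75.7 and 66.8 to 71.3. On chromosome 18 the MA median was below every MC library.

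The tumours did not share a single pattern over the 6 chromosomes. Correlations of log2 shares over the 8 MA libraries were computed for all 15 pairs of chromosomes, and 9 of them had r below 0. Shares of 1 list are tied to each other, which pushes such correlations towards negative values. None of the 15 passed at an adjusted p under 0.05, and 2 had an unadjusted p under 0.05.

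Chromosomes 19 and 24 came nearest to moving together across tumours. Pearson's r was 0.88 (two-sided exact permutation, n = 8, p = 0.00355, adjusted p = 0.0532) and Spearman's rho was 0.83 (exact permutation p = 0.0154, adjusted p = 0.231). Without the 2 libraries farthest from the median of chromosome 19, r was 0.72, and within the 6 libraries of run 3 it was 0.93. Run 2 holds 2 MA libraries, too few for a value of its own. For chromosomes 9 and 19, r was −0.74 (exact permutation, n = 8, p = 0.0358, adjusted p = 0.24) and rho was −0.52 (exact permutation p = 0.197, adjusted p = 0.492), and without the 2 farthest libraries r was −0.30. Within run 3 that r was −0.66.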

How the data were processed

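The peak lists were made by the authors: reads were trimmed with cutadapt, aligned with BWA to GRCz11 (danRer11), filtered to proper pairs of high mapping quality, and stripped of duplicates, and peaks were called for each library alone with MACS2 (genome size 1000000000, no model, shift of −50 bp, extension of 100 bp, duplicate limit of 999, summits called). The submitters' notes also name GRCz10, with no role given, GATK and SAMtools, and versions are not given in the sources used here. Per the file headers and methods, the deposited values used were the fold enrichment at the summit, which is a ratio of pileup to local background after adding 1 to both, and the −log10 p-value and −log10 q-value, with q under 0.05. The authors' differential tests were not used here.

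Lines with the same start and end were collapsed to the strongest summit, chromosomes 1 to 25 were kept, and each list was reduced to the 57910 strongest by −log10 p, the length of the shortest list. Pileup and local background were solved from fold and −log10 p by the Poisson tail. At least 99.95% of peaks in every library were solved, with a difference of at most 0.002, or 0.0002 of the value, on the −log10 scale. The most frequent background gave the number of tags (6.05 M to 24.6 M). Log2 ratios were taken to the mean of the 4 MC libraries, and each MC library to the mean of the other 3. Regions were merged at an overlap of 1 bp. The 6 chromosomes, the windows and the lists were chosen with earlier results of these data known. MA against MC was therefore not tested for shares, windows, pileup, fold or new intervals. It was tested for the detection of regions over chromosomes 1 to 25. Those calls are given as counts beside the share over all regions tested. The named regions are, on each chromosome, the best mean rank among those in all 8 MA and no MC list and among those in all 12 lists, and the named windows are those with the highest and lowest mean ratio. The gene and cell type marker lists were not run, because an annotation of this build was not used here, and the sorted cell types were therefore not checked against markers. Per the study, each library came from its own fish or tumour, so p-values measure the spread between these. Scripts were tested on simulated data and used Python 3.11.15, NumPy 2.4.6, SciPy 1.17.1, pandas 2.3.3, statsmodels 0.14.6 and Matplotlib 3.10.9.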

Additional observations from a re-analysis of the deposited data

Results flagged for a closer look

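One result of 16 sets of 8 MA values stood apart by Dixon's test at the 95% level, which flags about 1 in 20 groups by chance. At the shared regions of chromosome 22 the log2 pileup ratio was 0.95 in MA 4, and the nearest library, MA 9, was at 0.64. MA 4 was also the one library in which every window of chromosome 22 was raised.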

How the results depend on the processing

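The 6 share ratios kept their sign under all 48 alternatives (lists of 30000 or 10000, complete lists, no intervals of 119 to 121 bp, base pairs covered, centring on the median chromosome, ranking by fold, run 2 only), and 47 moved by less than 1 SD between MA libraries. The exception was chromosome 19 at 10000 intervals, 0.57 against 0.34. All alternatives draw on the libraries that chose the chromosomes, so the kept signs test nothing. Leaving out 1 library gave 0.20 to 0.29, 0.27 to 0.34, 0.30 to 0.38, 0.19 to 0.24, 0.26 to 0.39 and 0.15 to 0.26 on chromosomes 9, 18, 19, 22, 23 and 24.

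Pileup ratios depended more on the processing. The sign turned on chromosome 9 for regions in all 12 lists of 10000 (0.0329), and, in 2 alternatives chosen after seeing the data, without regions holding intervals of 119 to 121 bp (0.24) and for the local background (0.21). On chromosome 18 it turned with the other 19 chromosomes as the scale (0.0391), in run 2 only (0.10), without those regions (0.19), for the background (0.23) and without MC_Het 4 (0.0203), MC_Homo (0.00365) or MA 7 (0.01), with a range of −0.13 to 0.0203 over all libraries left out. At 10000 intervals chromosomes 19, 22, 23 and 24 were at 0.0405, −0.0202, 0.0561 and −0.0934, and with fold in place of pileup at 0.31, 0.25, 0.0781 and 0.0979. The cause was not tested.

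The new-interval difference of 8.22 percentage points was 3.16 against complete MC lists and 11.5 in run 2. At a threshold of 0.3 the windows raised were 44.4% in place of 59.6%. Between runs, adjusted p was 0.25 to 1 under all alternatives (exact permutation), and a single difference could not go below 0.25. The sign turned on chromosome 19 for 10000 intervals (0.015 percentage points), no intervals of 119 to 121 bp (0.288) and base pairs (0.0296). Leaving out 1 MA library gave, in percentage points, −0.165 to 1.41 on chromosome 9, −0.161 to 0.479 on 18, −0.886 to 0.621 on 19, −0.00259 to 0.642 on 22, −0.868 to 0.405 on 23 and −0.203 to 0.66 on 24, the signs turning without MA 4 (22, 23, 24), MA 5 (9, 18, 19) or MA 8 (19). For chromosomes 19 and 24, r was 0.94 without MA 7 (exact permutation, n = 7, adjusted p = 0.00595), the lowest adjusted p of all settings. The highest adjusted p over the settings was 0.461 (exact permutation). Over MA libraries left out, which were also chosen after seeing the data, r ranged from 0.81 to 0.94.

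No paired analysis was possible because the replicate numbers that MC and MA share belong to different fish, MA against MC was not tested, and the 2 runs of MA share no number. Peak lists hold no intervals under the caller's threshold, and the shallowest library held 6.05 M tags.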
